A study of Mus musculus with 52 samples.

Results

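RNA-seq counts were examined for 9 genes of the epidermal growth factor (EGF) system, 6 ligands (Areg, Ereg, Hbegf, Tgfa, Btc and Epgn) and 3 receptors (Egfr, Erbb2 and Erbb3), out of 24421 gene symbols counted. The genes were taken by their symbols. They were followed through 13 clones of Cilia-APEX-IMCD3, a line derived from the mouse inner medullary collecting duct, each sequenced as 4 libraries. Clones are counted here within each state. The study's methods describe 4 control and 3 mutant clones in all, so the same clone may be counted in both states. The labels do not tie clones across states, and none was paired. Mutant clones carried homozygous missense alleles of Wdr34 or Wdr60, the intermediate chains of the dynein-2 motor of the primary cilium, made by cytosine base editing with BE4-Gam. According to the study's methods the changes were Ala to Val in Wdr60 and Arg to Trp or Gly to Ser in Wdr34, and the Gly to Ser clone also carried an unintended heterozygous missense change beside it. Control clones were transfected with the same editor and a guide vector without a target. The ciliated set held 3 mutant clones (Wdr60, Wdr34 clone 1 and Wdr34 clone 3) and 4 controls (A4, D8, G7 and H12). The non-ciliated set held 2 mutant clones (Wdr34 and Wdr60) and 4 control clones (AB, 1, 2 and 3). The labels do not say which Wdr34 allele clones 1 and 3 carry. The paper states that the Gly to Ser mutant was left out of the non-ciliated analysis. Mutants of the 2 states therefore differ in alleles as well as in state. Every clone grew from a single sorted cell, so a genotype was represented by 1 clone or a few. According to the study's methods ciliation was induced in low-serum medium, whereas the labels give the same serum medium for all samples. Ciliation, serum level and the time of sequencing therefore cannot be told apart.

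EGF-family ligands are made as membrane-anchored precursors that metalloproteases cut loose at the cell surface, and they signal to the same cell or its neighbours. Amphiregulin (Areg), epigen (Epgn) and transforming growth factor alpha (Tgfa) bind the EGF receptor, while epiregulin (Ereg), betacellulin (Btc) and heparin-binding EGF-like growth factor (Hbegf) can also bind ErbB4. ErbB2 has no known ligand and acts as a partner in receptor pairs, and ErbB3 binds neuregulins but has little kinase activity of its own. In the kidney tubule this system is known for its part in epithelial growth, repair after injury and the enlargement of cysts.

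Library totals lay between 14816218 and 28084979 counts, so that 1 CPM (the count of a gene scaled to the total of its library) stood for 14.8 to 28.1 counts. The 4 libraries of a clone were technical replicates, so p-values over libraries measure the spread among libraries as well as among a few clones, and exact permutation tests over clone means are given beside several of them. Library 1 of A4, H12, AB and the non-ciliated Wdr60 clone, and library 4 of G7, stood apart from the other libraries of their clones. The ciliated Wdr60 clone split into libraries 1 and 2 against 3 and 4, with a chi-square per degree of freedom of 45.4 to 104 across the split, the latter the highest of any pair. Its Egfr split likewise, at 294 and 277 against 203 and 208 CPM. Without this clone the calls of members were as with it, except that Btc was also called lower in ciliated than in non-ciliated mutants (log2 fold change -1.16, edgeR adjusted p = 0.00918). The epithelial label was checked against a list of 16 collecting-duct genes, of which 10 to 11 reached 1 CPM in each group, with a summed level of 1186 to 4890 CPM per clone. The water channel gene Aqp2 had at most 1 count in any library. The ciliated control G7 and the non-ciliated control 2 stood apart from the other clones. Their Cdh1 (E-cadherin) was at 14.4 and 4.22 CPM against 242 to 649 CPM in the other 11 clones, and their Epcam was at 13.5 and 2.86 CPM against 183 to 836 CPM. Krt8, Krt18 and Krt19 of the list were also lowest in G7 and control 2, but Pax2 and Pax8 were highest in them. Pax2 was at 310 and 277 CPM and Pax8 at 419 and 300 CPM, so the list did not fall as a whole. Fibroblast markers summed to at most 5.67 CPM in every clone except the ciliated Wdr34 clone 3 (31.7 CPM), and endothelial markers to at most 0.186 CPM. Wdr34 lay between 21.7 and 49.5 CPM and Wdr60 between 20.4 and 30.8 CPM over the clones, which does not check the labels because the alleles are missense. In bulk RNA, fewer cells of a type and less RNA per cell cannot be told apart.

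Areg, Ereg, Epgn and Btc lie side by side on chromosome 5, and the promoter windows of Areg, Btc, Epgn and Tgfa are shown so that ligands with high, low and variable levels can be set beside their sequences. Ereg and Hbegf are named only. In GRCm38 Epgn lies at chr5:91027517-91035212, Ereg at chr5:91074617-91093649, Areg at chr5:91139599-91148432 and Btc at chr5:91357261-91402994. The intervals between neighbours are 39.4 kb, 45.9 kb and 209 kb, the span is 375 kb, and RefSeq places no other protein-coding gene between them. The sequences below are RefSeq (GRCm38.p6) windows from 250 bases before to 50 bases after the gene start, on the gene's strand, 5′ to 3′. They were searched on both strands for 4 motifs, whose letters are in capitals where found. The cAMP response element was searched as TGACGTCA. The AP-1 motif was searched as TGANTCA. The TATA box was searched as TATAAA. The GC box was searched as GGGCGG, and a match on the other strand reads as its reverse complement. Areg is at chr5:91139349-91139648 (plus strand), Btc at chr5:91402945-91403244 (minus strand), Epgn at chr5:91027267-91027566 (plus strand) and Tgfa at chr6:86194972-86195271 (plus strand). The Tgfa window is set on a start at base 86195222, which lies 184 bases inside the gene as RefSeq bounds it.
Areg: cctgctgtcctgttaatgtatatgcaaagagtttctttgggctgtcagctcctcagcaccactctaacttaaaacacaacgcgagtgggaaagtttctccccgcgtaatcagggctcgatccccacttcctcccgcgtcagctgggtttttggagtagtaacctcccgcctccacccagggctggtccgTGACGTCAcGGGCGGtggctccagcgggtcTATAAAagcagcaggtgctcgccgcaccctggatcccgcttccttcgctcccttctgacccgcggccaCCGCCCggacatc
Btc: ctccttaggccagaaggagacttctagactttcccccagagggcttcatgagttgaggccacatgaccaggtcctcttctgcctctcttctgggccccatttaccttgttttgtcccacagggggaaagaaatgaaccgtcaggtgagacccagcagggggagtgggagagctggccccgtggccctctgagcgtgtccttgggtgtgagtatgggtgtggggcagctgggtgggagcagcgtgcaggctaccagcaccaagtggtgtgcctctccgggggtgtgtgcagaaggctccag
Epgn: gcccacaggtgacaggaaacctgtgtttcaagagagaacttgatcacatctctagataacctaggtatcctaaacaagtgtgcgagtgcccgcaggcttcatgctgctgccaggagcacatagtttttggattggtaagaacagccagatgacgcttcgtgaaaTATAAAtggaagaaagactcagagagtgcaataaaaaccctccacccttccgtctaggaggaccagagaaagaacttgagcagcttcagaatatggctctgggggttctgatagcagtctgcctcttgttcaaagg
Tgfa: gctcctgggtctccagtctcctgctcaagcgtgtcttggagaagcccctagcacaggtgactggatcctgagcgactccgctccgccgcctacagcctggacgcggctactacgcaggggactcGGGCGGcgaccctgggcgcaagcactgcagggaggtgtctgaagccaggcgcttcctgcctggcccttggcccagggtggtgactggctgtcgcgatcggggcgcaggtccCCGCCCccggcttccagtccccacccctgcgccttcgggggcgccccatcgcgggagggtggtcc

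Of 6 windows searched (Areg, Tgfa, Btc, Epgn, Egfr and Erbb2), Areg alone held a full cAMP response element, which began 61 bases before the start and was found in 1.79% of 32851 promoter windows. It also held a TATA box 31 bases before the start, a motif found in 13.6% of windows, and 2 GC boxes, a motif found in 35.7%. The Tgfa window held 2 GC boxes and the Egfr window 1. The Epgn window held a TATA box 86 bases before the start, and Btc and Erbb2 held none of the 4 motifs. AP-1 letters occurred in none of the 6 windows against 7.81% of all windows. The GC content was 47.3% for Epgn, 59.3% for Areg, 60.3% for Btc, 62.3% for Egfr, 66.0% for Erbb2 and 70.7% for Tgfa, with a median of 52.7% over all windows. These matches describe the letters of a window and say nothing about which factors bind there.

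Levels can be set side by side between genes only per length, here as CPM per kilobase of exons. By the median over 13 clones Hbegf (39.5) and Erbb2 (34.7) were highest, followed by Egfr (19.4), Erbb3 (14.1) and Tgfa (9.11). Areg (2.70) and Btc (1.02) were lower, Epgn was at 0.0930, and Ereg was at 0. Erbb3 spanned 1.86 to 38.1 and Tgfa 1.34 to 22.2, whereas Erbb2 spanned only 25.3 to 64.3. The most variable member was Areg, which ran from 0 to 46.8. In the rest of the family the neuregulin genes Nrg1 (1.53) and Nrg2 (1.19) were near Btc, while Egf itself (0.124) and Nrg4 (0.0758) were near Epgn. Erbb4 and Nrg3 had no counts in any library. Receptor transcripts were thus those of Egfr, Erbb2 and Erbb3.

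**Figure D1:**
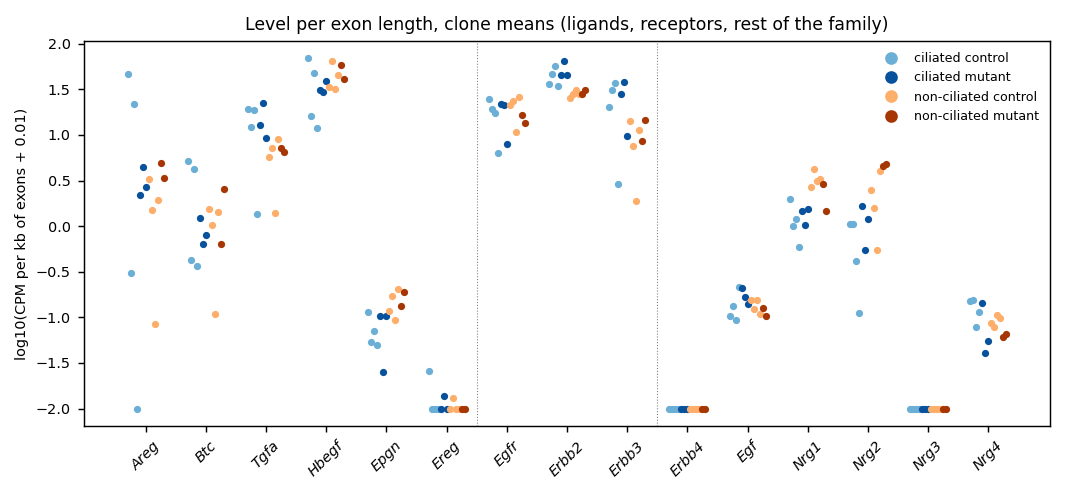
Level of each family gene per exon length in the 13 clones, as log10(CPM per kilobase of exons + 0.01), with 1 point per clone mean coloured by state and genotype; dotted lines separate ligands, receptors and the rest of the family. Hbegf and Erbb2 are highest by median (39.5 and 34.7 CPM per kilobase), and Erbb4 and Nrg3 sit at 0 in all clones.

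Areg, the gene for amphiregulin, differed more between control clones than between genotypes. Among ciliated controls D8 had a mean of 56.9 CPM and A4 of 26.3 CPM, while H12 had 0.359 CPM and G7 had 0. The 4 libraries of D8 gave 64.7, 57.1, 43.4 and 62.3 CPM, and those of A4 gave 4.91, 24.1, 43.5 and 32.9 CPM, of which the lowest was the library that stood apart. G7 had no Areg count in any of its 4 libraries, which allows a level of up to 0.0381 CPM. The ciliated mutants lay between these extremes, at 2.69 CPM in Wdr60, 5.44 in Wdr34 clone 1 and 3.28 in Wdr34 clone 3. All 12 of their libraries fell between 1.60 and 5.97 CPM, with a median of 3.68. Non-ciliated controls were at 4.0 CPM in AB, 2.34 in control 3, 1.82 in control 1 and 0.0896 in control 2. The non-ciliated mutants were at 6.01 CPM (Wdr34) and 4.09 CPM (Wdr60), above all 4 controls of that state, although AB and Wdr60 differed by less than the spread of their libraries.

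Btc, the gene for betacellulin, had a similar order of control clones. Among ciliated controls D8 had a mean of 23.2 CPM and A4 of 19.0 CPM, whereas H12 had 1.90 CPM and G7 1.62 CPM, so D8 and A4 stood above the other pair without overlap of libraries. The ciliated mutants were at 5.54 CPM (Wdr60), 3.58 (Wdr34 clone 3) and 2.84 (Wdr34 clone 1), again inside the range of the controls. Non-ciliated controls were at 6.95 CPM in AB, 6.45 in control 3, 4.59 in control 1 and 0.453 in control 2. The non-ciliated mutants fell on either side, at 11.6 CPM in Wdr60, above every control, and at 2.87 CPM in Wdr34, below 3 of the 4.

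Tgfa, the gene for transforming growth factor alpha at chr6:86195038-86275744, was high in most ciliated clones. Its means were 124 CPM in D8, 121 in A4 and 79.8 in H12 but 8.70 in G7. The ciliated mutants were at 144 CPM (Wdr34 clone 1), 83.1 (Wdr60) and 59.3 (Wdr34 clone 3). G7 was therefore the only ciliated clone below the highest non-ciliated clone, although Wdr34 clone 3 and control 3 differed by less than the spread of their libraries. Non-ciliated controls were at 59.1 CPM in control 3, 46.3 in control 1, 36.9 in AB and 8.92 in control 2, and the non-ciliated mutants at 47.1 (Wdr34) and 41.7 CPM (Wdr60). G7 and control 2 were the low clones of their states with libraries at 7.66 to 10.3 CPM and at 7.95 to 9.77 CPM.

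Hbegf, the gene for heparin-binding EGF-like growth factor, had the highest median level per length of the 6 ligands. D8 (335 CPM) and A4 (233 CPM) were again above H12 (78.1 CPM) and G7 (57.4 CPM), the same order as for Areg and Btc. Ciliated mutants were at 191 CPM (Wdr34 clone 3), 151 (Wdr60) and 143 (Wdr34 clone 1), inside the range of the controls. The non-ciliated controls had 309 CPM in control 1, 222 in control 3, 163 in AB and 153 in control 2. The non-ciliated mutants were at 282 CPM (Wdr34) and 198 CPM (Wdr60). Control 2, low in Areg, Btc and Tgfa, was near AB for Hbegf.

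Epgn and Ereg were at the limit of detection. Epgn, the gene for epigen, had 168 counts over all 52 libraries and at most 9 in any library. Its clone means ran from 0.0275 to 0.187 CPM in ciliated clones and from 0.152 to 0.357 CPM in non-ciliated clones, and these ranges overlap. Over the control clones the difference in Epgn had an exact permutation p of 0.0571 (2-sided, 4 against 4 clones), and only 1 ciliated control lay above the lowest non-ciliated control. Ereg, the gene for epiregulin, had 6 counts in all, 4 of them in D8. Neither gene passed the filter on low counts, so neither entered the tests across genes, and nothing was detectable for Ereg at this depth beyond those counts.

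**Figure D2:**
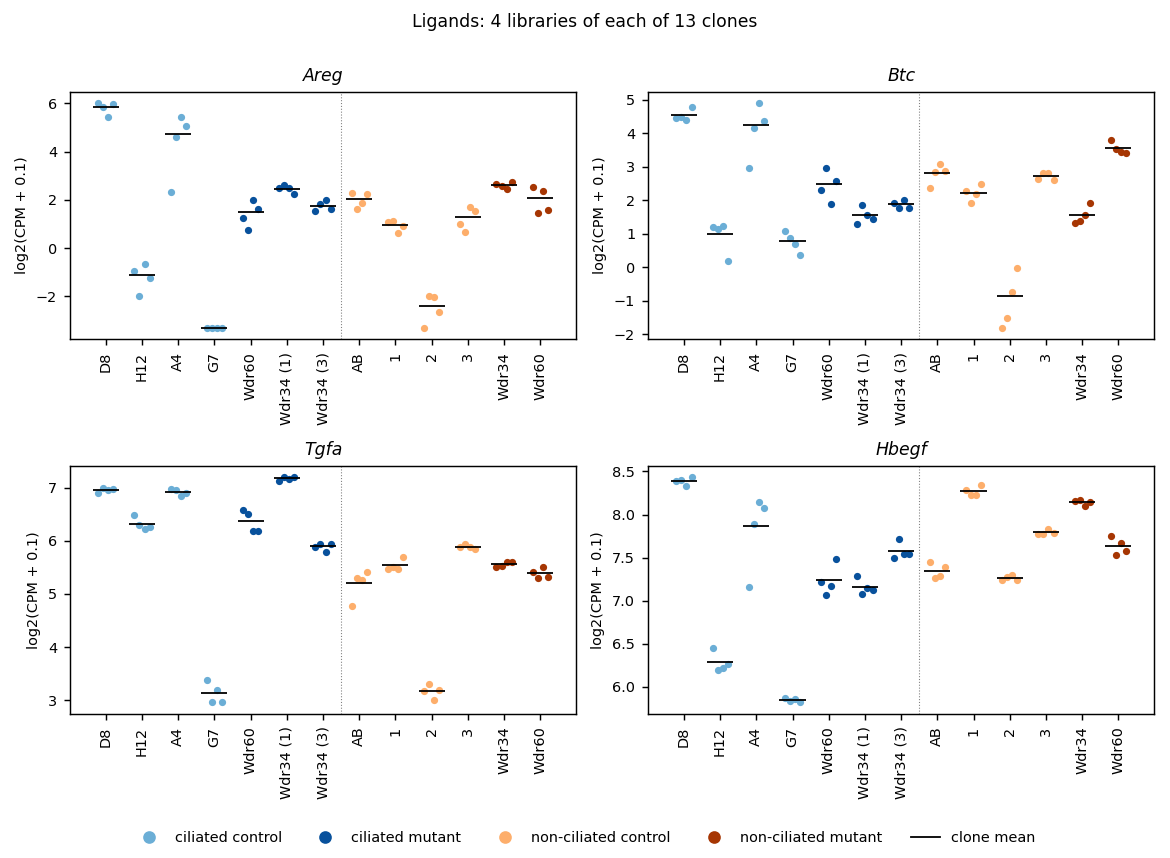
Levels of the 4 tested ligands as log2(CPM + 0.1), with 4 points per clone for its libraries, a black bar at the log of the clone mean, and a dotted line between the ciliated clones (left) and the non-ciliated clones (right). D8 and A4 are the highest ciliated clones for Areg (56.9 and 26.3 CPM) and Btc, G7 has no Areg count, and control 2 is the lowest non-ciliated clone for all 4 ligands.

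Egfr, the gene for the EGF receptor at chr11:16752203-16913907, varied less between clones than Areg or Btc. Ciliated controls were at 283 CPM in D8, 220 in H12, 197 in A4 and 70.9 in G7. Ciliated mutants were at 246 CPM (Wdr60), 241 (Wdr34 clone 1) and 88.9 (Wdr34 clone 3), so 1 control and 1 mutant clone were low. Of the non-ciliated controls, levels were 296 CPM in control 3, 266 in control 1, 241 in AB and 123 in control 2. The AB libraries gave 129, 274, 285 and 278 CPM, the low value coming from the library that stood apart. The non-ciliated mutants were at 189 CPM (Wdr34) and 151 CPM (Wdr60), below 3 of the 4 controls and above control 2.

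Erbb2, the gene for the ligandless partner receptor at chr11:98412484-98437716, was the steadiest member. Ciliated controls were at 297 CPM in A4, 245 in H12, 187 in D8 and 181 in G7, and ciliated mutants at 335 (Wdr34 clone 1), 239 (Wdr34 clone 3) and 238 CPM (Wdr60). Non-ciliated controls were at 164 CPM in control 2, 148 in control 3, 146 in control 1 and 132 in AB, and the mutants at 163 (Wdr60) and 145 CPM (Wdr34). Every ciliated clone mean thus lay above every non-ciliated clone mean, although single libraries of G7 and D8 (166 and 170.4 CPM at the lowest) were below the highest of the non-ciliated Wdr60 clone (177 CPM). That was so for 7.26% of the 12947 genes passing the filter over all libraries, and Erbb2 alone among the 9 members had that pattern. G7 and control 2 did not stand apart for Erbb2, and control 2 was the highest of its group.

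Erbb3, the gene for the neuregulin receptor at chr10:128567523-128589635, was lowest in the clones with the least Cdh1 and Epcam. Ciliated controls were at 223 CPM in A4, 189 in H12 and 122 in D8, but G7 had 17.2. Ciliated mutants were at 229 CPM (Wdr34 clone 1), 169 (Wdr60) and 59.0 (Wdr34 clone 3). Non-ciliated controls were at 84.6 CPM in AB, 68.1 in control 3, 45.8 in control 1 and 11.2 in control 2, and the mutants at 87.8 (Wdr60) and 51.5 CPM (Wdr34). The clones at 17.2 and 11.2 CPM were G7 and control 2, the pair with the lowest Cdh1 and Epcam. The AB libraries gave 39.6, 103.5, 96.5 and 99.0 CPM, again with library 1 low.

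**Figure D3:**
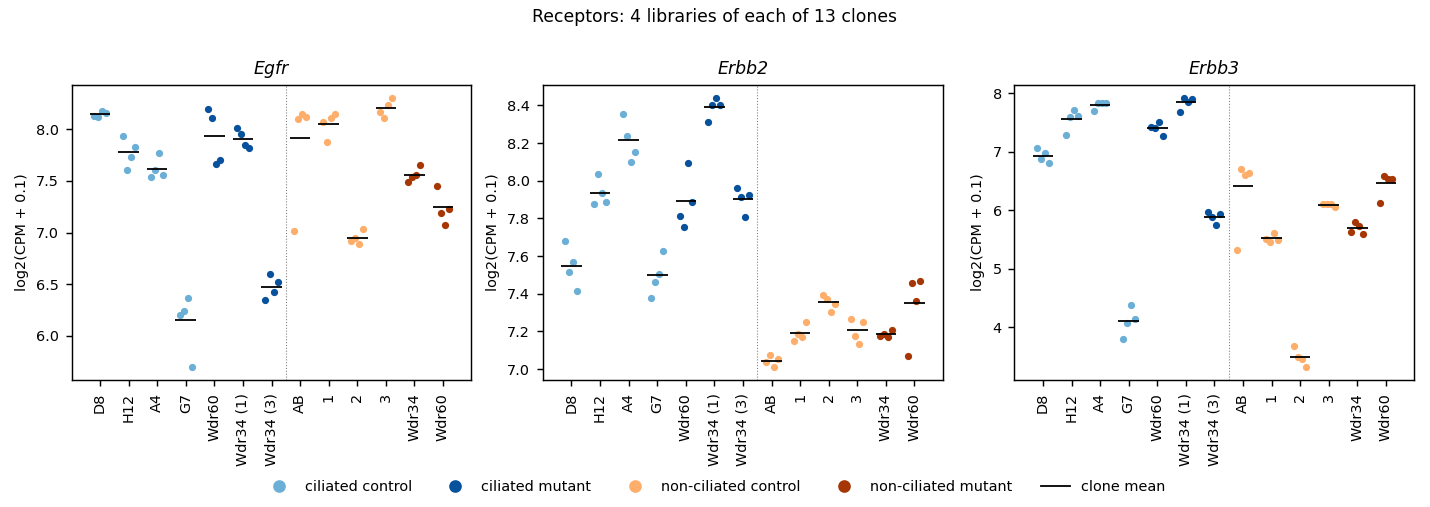
Levels of the 3 receptor genes as log2(CPM + 0.1), with 4 points per clone for its libraries, a black bar at the log of the clone mean, and a dotted line between the ciliated clones (left) and the non-ciliated clones (right). The clone means of Erbb2 separate the states, although single libraries overlap, whereas G7 and control 2 are the lowest clones of their states for Erbb3 (17.2 and 11.2 CPM) and for Egfr (70.9 and 123 CPM).

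In ciliated cells the question was whether the members differed between the 3 mutant and the 4 control clones. None of the 7 members tested was called, where a call needed both an adjusted p below 0.05 in edgeR's quasi-likelihood test (Benjamini-Hochberg over all genes tested) and a change of 2-fold or more. By that rule 0.644% of the 11950 genes tested were called. At an unadjusted p under 0.05 there were 3 members, Areg, Btc and Erbb2, against 19.2% of all genes. Areg was at 3.8 ± 1.45 CPM in mutants and 20.9 ± 27.0 CPM in controls (SD over 3 and 4 clones), a log2 fold change of -2.45 ± 0.92 (SE, edgeR adjusted p = 0.136). The difference of the means of log2(CPM + 0.1) over clones was 0.38, with H12 and G7 far below the mutants, but -0.55 with a pseudocount of 1, so its sign depended on that choice, and its exact permutation p was 0.914 (2-sided, 3 against 4 clones, smallest possible 0.0286). Btc had a log2 fold change of -1.51 ± 0.51 (edgeR adjusted p = 0.0972), and its exact permutation p over the 7 clones was 0.543. Both ligands depended on single control clones. Without G7 Areg was called lower in the mutants (log2 fold change -2.87, edgeR adjusted p = 0.00783) and so was Btc (-1.87, 0.00612). Without H12 the values were -2.86 (0.0245) and -1.86 (0.00982), while no other clone left out gave a call. Without D8 both values were smaller, at -1.22 for Areg and -0.91 for Btc. Over all genes 343 were called without G7 and 215 without H12, against 77 with all clones.

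The other members differed little between ciliated mutants and controls. Hbegf (log2 fold change -0.12 ± 0.30), Tgfa (0.19 ± 0.38), Egfr (-0.02 ± 0.26) and Erbb3 (0.14 ± 0.39) had edgeR adjusted p-values of at least 0.831. Their signs turned when single clones were left out. Erbb2 was at 271 ± 55.9 CPM in mutants and 227 ± 54.5 CPM in controls, a log2 fold change of 0.24 ± 0.11 (edgeR adjusted p = 0.213), with an exact permutation p of 0.286. No member had clone means that did not overlap between the groups, which held for 1.85% of all genes tested.

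In non-ciliated cells again none of the 7 members was called, against 3.06% of 12012 genes, and 2 members, Areg and Egfr, had an unadjusted p under 0.05, against 30.3% of all genes. Areg was at 5.05 ± 1.36 CPM in the 2 mutants and 2.06 ± 1.61 CPM in the 4 controls, a log2 fold change of 1.29 ± 0.51 (edgeR adjusted p = 0.0871). It was the only member whose clone means did not overlap, a pattern of 13% of genes, and its exact permutation p was 0.333 (2-sided, smallest possible 0.0667). Without the libraries that stood apart the means did overlap, with the Wdr60 clone at 3.55 CPM and AB at 3.75 CPM. Without AB it was called higher (log2 fold change 1.83, edgeR adjusted p = 0.0123). Egfr went the other way, at 170.0 ± 26.3 CPM in mutants and 232 ± 75.5 CPM in controls, a log2 fold change of -0.45 ± 0.19 (edgeR adjusted p = 0.111; exact permutation p = 0.4). Btc (0.65 ± 0.50), Erbb3 (0.41 ± 0.36), Tgfa (0.23 ± 0.32), Hbegf (0.19 ± 0.15) and Erbb2 (0.06 ± 0.06) had edgeR adjusted p-values from 0.391 to 0.656. With single clones left out 277 to 527 genes were called in all, against 368 with every clone.

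**Figure D4:**
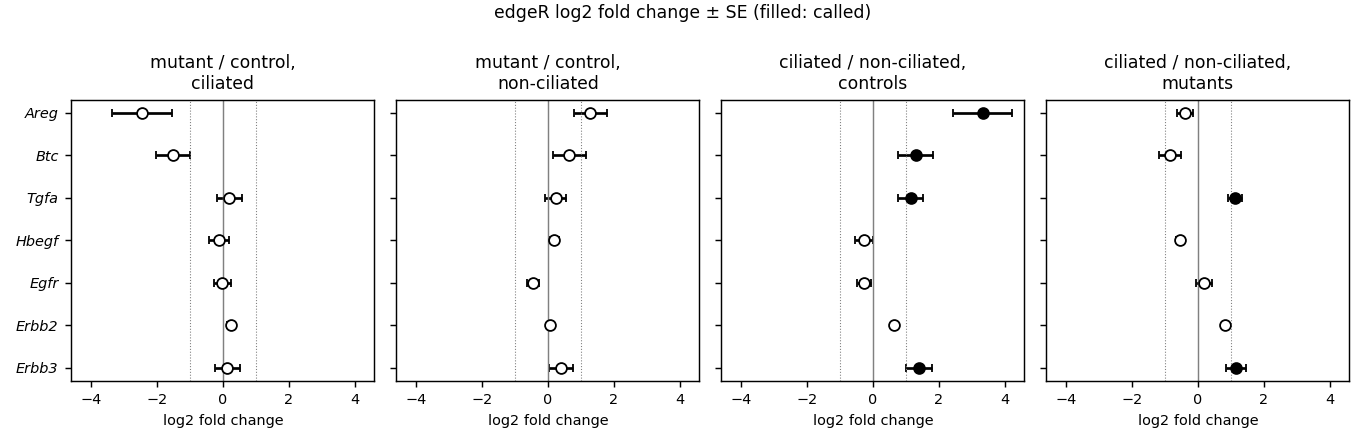
Log2 fold change with its SE (bars, edgeR) of the 7 tested members in 4 comparisons; filled points were called, open points were not, and dotted lines mark a fold change of 1 on the log2 scale in either direction. No point is filled in the mutant comparisons, 4 are filled in the controls' comparison of states and 2 in the mutants' comparison of states.

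Between ciliated and non-ciliated control clones 4 of the 7 members were called higher in the ciliated clones, Areg, Btc, Tgfa and Erbb3, against 6.29% of 11856 genes called higher. Areg had a log2 fold change of 3.34 ± 0.89 (edgeR adjusted p = 0.00169) and Erbb3 of 1.40 ± 0.40 (0.00322). Btc had 1.31 ± 0.53 (0.0331) and Tgfa 1.14 ± 0.39 (0.0124). Erbb2 rose by 0.63 ± 0.08 on the log2 scale, below the fold required for a call, with an edgeR adjusted p of 1.3e-07. With the adjusted p alone 5 members were higher, against 31.2% of genes, and none was lower, against 29.7%. Hbegf (-0.26 ± 0.28, edgeR adjusted p = 0.42) and Egfr (-0.26 ± 0.22, 0.306) were not called.

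Over clone means this comparison separated a single member. Erbb2 had all 4 ciliated controls above all 4 non-ciliated controls, as did 10.7% of genes, and an exact permutation p of 0.0286 (2-sided, the smallest possible for 4 against 4 clones). The exact permutation p was 0.314 for Erbb3, 0.457 for Tgfa, 0.514 for Btc and 0.657 for Areg, whose clone means overlapped. With the libraries of each clone summed to 1 sample no member was called, at log2 fold changes of 3.32 (Areg), 1.37 (Erbb3), 1.3 (Btc) and 1.12 (Tgfa). With the clone as a block in limma none was called either, and Areg turned to -0.03 (adjusted p = 0.991) and Erbb3 had 1.21 (0.0993). The Areg difference of clone means was 1.06 on the log2 scale, against 3.34 in the fit over libraries. In that fit Areg and Erbb3 remained called when any single clone was left out, but Areg was at 2.10 without D8. Tgfa lost the call without A4 (0.91), D8 (0.89) or control 2 (0.82), and Btc without A4 (0.94), D8 (0.70), control 1 (1.30) or control 2 (0.93). The Btc call was also lost when any library number was left out, with edgeR adjusted p-values from 0.0621 to 0.0868. With both G7 and control 2 left out, an alternative chosen after seeing the data, all 4 stayed called at log2 fold changes of 3.33 (Areg), 1.42 (Erbb3), 1.27 (Btc) and 1.18 (Tgfa). The edgeR adjusted p of Tgfa was then 6.3e-09 and that of Erbb3 1.16e-07. Both clones were the lowest of their states for all 4 genes. Leaving them out therefore narrows the spread, and the smaller p-values add no support.

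Between ciliated and non-ciliated mutant clones Tgfa and Erbb3 were called higher in the ciliated clones, 2 of 7 members against 10.7% of 11972 genes. Tgfa was at 95.6 ± 43.8 CPM in the 3 ciliated mutants and 44.4 ± 3.79 CPM in the 2 non-ciliated ones, a log2 fold change of 1.13 ± 0.20 (edgeR adjusted p = 4.92e-05). Erbb3 had a log2 fold change of 1.15 ± 0.30 (edgeR adjusted p = 0.00243). Neither was called when Wdr34 clone 1 was left out (0.70 and 0.74), and Erbb3 was not called without the non-ciliated Wdr34 clone (0.81). With the libraries of each clone summed neither was called, at similar log2 fold changes of 1.10 for Tgfa (edgeR adjusted p = 0.114) and 1.11 for Erbb3 (0.23). With the clone as a block in limma Erbb3 fell below the fold required (0.98). The clone means of Erbb3 overlapped between the states, with an exact permutation p of 0.3. With the adjusted p alone, Tgfa, Erbb2 and Erbb3 were higher, against 33.7% of genes, and Hbegf and Btc lower, against 30.7%. Erbb2 rose by 0.83 ± 0.10 on the log2 scale (edgeR adjusted p = 5.66e-07). Hbegf fell by 0.55 on the log2 scale (SE 0.11, edgeR adjusted p = 0.000122) and Btc by 0.84 (SE 0.33, adjusted p = 0.0288). The clone means of Btc overlapped (exact permutation p = 0.6), and Btc turned to 0.48 without the non-ciliated Wdr60 clone. Areg (-0.39 ± 0.23, adjusted p = 0.143) and Egfr (0.19 ± 0.24, 0.483) were not called. All ciliated clone means were above all non-ciliated ones for Tgfa and Erbb2, as for 27.0% of genes, and below them for Hbegf and the untested Epgn, as for 28.5% of genes, and 3 against 2 clones cannot reach an exact permutation p below 0.1. The comparison of states among mutants shares no clone with that among controls. It may hold the same clone on both sides, and the Gly to Ser allele is on its ciliated side only.

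In the fit over libraries Areg and Btc had opposite signs in the mutant comparisons of the 2 states, and the difference was tested directly as an interaction. The Gly to Ser allele is in the ciliated mutants only, so the mutant groups of the 2 states differ in alleles. Over clone means the Areg difference was 0.38 in ciliated and 1.87 in non-ciliated cells with a pseudocount of 0.1, and -0.55 and 1.16 with a pseudocount of 1, so only the latter had opposite signs. For Areg the mutant effect in ciliated cells minus that in non-ciliated cells was -3.74 ± 1.09 on the log2 scale (edgeR adjusted p = 0.0599), and for Btc -2.17 ± 0.73 (0.116). No member was called, against 1.19% of 12544 genes, and 149 genes were called in all. Areg was called without AB (-4.28, edgeR adjusted p = 0.0256), G7 (-4.14, 0.00131) or H12 (-4.14, 0.0108), and Btc without G7 (-2.51, 0.0108) or H12 (-2.51, 0.0288). The values were smallest in size at -2.51 for Areg without D8 and at -0.83 for Btc without the non-ciliated Wdr60 clone. With both G7 and control 2 left out Areg (-3.75, 0.0028) and Btc (-2.15, 0.0159) were called. Both clones were the lowest of their states for these genes, so leaving them out narrows the spread. Over all genes 247 were called without AB, 585 without G7 and 319 without both G7 and control 2. The other 5 members had edgeR adjusted p-values from 0.558 to 0.987.

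Each mutant clone was also set against the 4 controls of its state, where genotype and clone cannot be told apart and the p-values hold no spread between mutant clones. No member was called in the ciliated Wdr60 clone (1.93% of genes called), the ciliated Wdr34 clone 1 (0.679%), the non-ciliated Wdr34 clone (2.24%) or the non-ciliated Wdr60 clone (3.41%). In the ciliated Wdr34 clone 3 the only member called was Egfr, where 5.8% of genes were called in either direction. Egfr was lower with a log2 fold change of -1.13 ± 0.38 (edgeR adjusted p = 0.0386), yet G7, among the controls, was lower still at 70.9 against 88.9 CPM. The call was lost without A4 (-1.13), D8 (-0.90) or H12 (-1.05), and when any library number was left out. Calls of Btc and Erbb3 in this clone appeared only with G7 left out, whose Btc (1.62 CPM) and Erbb3 (17.2 CPM) lay below those of the clone (3.58 and 59.0 CPM). For this clone 1632 genes were called in all without G7, against 728 with G7 kept. In the non-ciliated Wdr34 clone Areg was called higher without control 2 (1.15, edgeR adjusted p = 0.0108) or AB (2.09, 0.0327), and Btc lower without control 2 (-1.06, 0.00318). With single controls left out 289 to 509 genes were called in all for that clone, against 277 with every control. The highest Erbb2 level of any clone, in ciliated Wdr34 clone 1, was 0.55 ± 0.16 above controls on the log2 scale (edgeR adjusted p = 0.0648).

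Across the 13 clone means, correlations of log2(CPM + 0.1) describe which members varied together. The clones share cell line and library preparation. The n of 13 may count the same clone in both states, so it can exceed the number of distinct clones. Tgfa and Erbb3 were the closest pair of members (Pearson r = 0.929; 0.932 in the 7 ciliated and 0.884 in the 6 non-ciliated clones). Areg and Btc, neighbours on chromosome 5, had r = 0.852, and 0.905 and 0.835 within the states. By ranks that pair had 0.692 over the 13 clones. Areg and Hbegf had r = 0.973 among ciliated but 0.469 among non-ciliated clones. Erbb2 was the member least like the rest, with r of -0.255 with Hbegf and 0.603 with Erbb3. Among ciliated clones these were 0.169 and 0.714, and among non-ciliated clones -0.172 and -0.502.

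Among all genes passing the filter, the gene most like each member by Pearson r over the 13 clones was listed. Erbb3 was closest to Esrp2 (r = 0.989), a splicing regulator of epithelial cells, and then to Cpne5 (0.982). Esrp2 was at 9.73 CPM in G7 and 5.35 CPM in control 2 against 30.2 to 129 CPM in the other clones. Tgfa was closest to Myo5b (0.973), a motor of apical recycling endosomes in epithelia, at 3.75 CPM in G7 and 7.72 CPM in control 2 against 32.4 to 208 CPM elsewhere. Hbegf was closest to Rnd3 (0.951) and Fosl1 (0.943), an AP-1 subunit induced by growth factor signalling, and Fosl1 ran from 0.378 CPM in G7 to 70.8 CPM in D8. Areg was closest to Kctd3 (0.958), Btc to Sbds (0.917), Egfr to Gm14005 (0.949) and Erbb2 to Klhl25 (0.947).

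**Figure D5:**
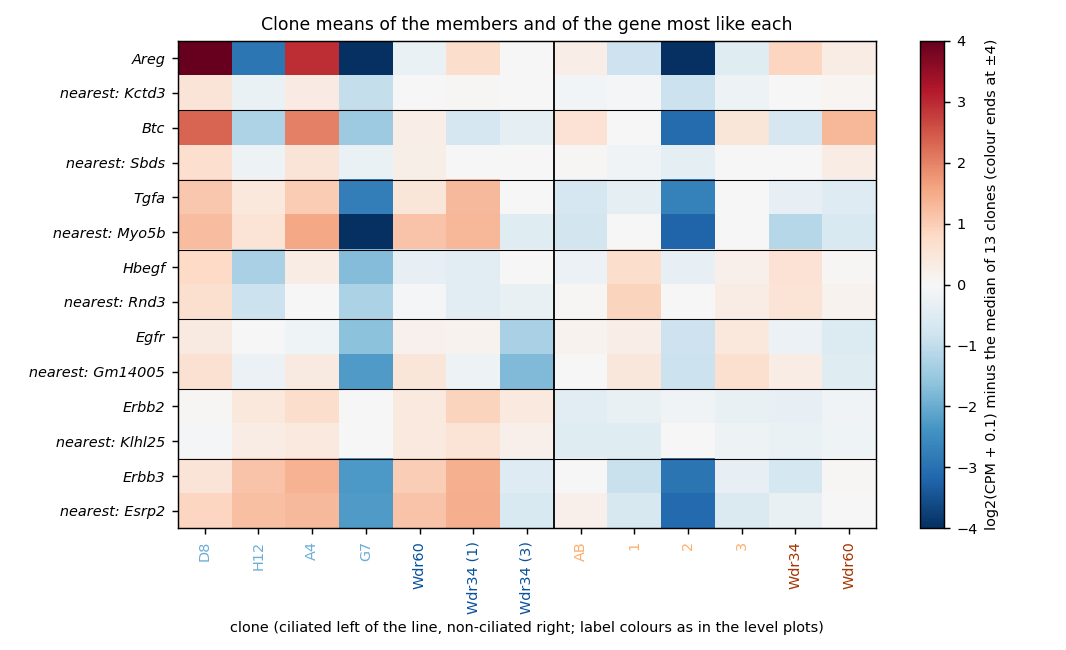
Clone means of the 7 tested members and of the gene most like each, as log2(CPM + 0.1) minus the median of the 13 clones (colour scale ending at 4 in both directions), with ciliated clones left of the vertical line. G7 and control 2 are low for Areg, Btc, Tgfa, Egfr and Erbb3 and for Myo5b and Esrp2, while Erbb2 follows the state instead.

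The rest of the family and the genes around the receptors were followed as lists. Of 6 further family genes, 3 or 4 were tested per comparison. Nrg1, a ligand of ErbB3 and ErbB4, was lower in ciliated than in non-ciliated controls (log2 fold change -1.49 ± 0.18, edgeR adjusted p = 2.7e-08). Nrg2 was lower in ciliated cells among controls (-1.72 ± 0.40, 0.000457) and among mutants (-2.04 ± 0.24, 1.82e-07), the direction opposite to Erbb3. The Nrg1 clone means did not overlap between the control groups, whereas those of Nrg2 did (exact permutation p = 0.114). Over the mutant clones the exact permutation p of Nrg2 was 0.1, the smallest possible. Over all genes 473 of 11856 were called lower between states in controls and 747 of 11972 in mutants. Nrg2 was also the only family gene called between genotypes, higher in non-ciliated mutants (1.13 ± 0.34, 0.0258). Its exact permutation p over clones was 0.2 there. The mutants were at 14.3 (Wdr34) and 15.2 CPM (Wdr60), against 12.7 CPM in control 3 and 1.69 to 7.70 CPM in the other controls. In that comparison 3.06% of all genes were called in either direction. Between states in controls 2 of the 4 family genes tested had positive and 2 negative log2 fold changes, with a median of -0.74 against 0.02 over all genes.

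Of 10 genes for ligand release, 9 were tested in each comparison of groups of clones. None was called between genotypes in either state, where 0.644% (ciliated) and 3.06% (non-ciliated) of all genes were called. Adam17, the main sheddase for Areg, Tgfa and Hbegf, had log2 fold changes of 0.12 ± 0.08 (ciliated) and 0.10 ± 0.06 (non-ciliated). Its edgeR adjusted p-values were 0.393 and 0.275. Between states, Rhbdf1, a partner of that sheddase, was called higher in ciliated controls (1.10 ± 0.14, 4.67e-08) and mutants (1.13 ± 0.21, 6.68e-05). Adam12, another metalloprotease, was called lower in both (-1.38 ± 0.57, 0.0367, and -1.87 ± 0.48, 0.00179). Of all genes 6.29% were called higher in ciliated controls and 10.7% in ciliated mutants. Called lower were 473 of 11856 genes in controls and 747 of 11972 in mutants. Over control clones both genes overlapped between states, with exact permutation p-values of 0.0857 (Rhbdf1) and 0.371 (Adam12). Over mutant clones the exact permutation p of each was 0.2. The list medians were within 0.06 of 0 between genotypes.

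Of 21 genes for signalling below the receptors (adaptors, Ras, Raf, Mek, Erk and PI3 kinase), all were tested. None was called between genotypes or between states in controls. The share called over all genes was 0.644% between the ciliated genotype groups and 3.06% between the non-ciliated ones. Between states in controls 746 of 11856 genes were called higher and 473 lower. In mutants, the adaptor Gab1 (1.32 ± 0.13, edgeR adjusted p = 1.94e-08) and Pik3r1 (1.31 ± 0.21, 1.45e-05) were called higher in ciliated cells and Eps8 lower (-1.05 ± 0.10, 5.36e-09). Over clones their exact permutation p-values were 0.1 (Gab1 and Eps8, the smallest possible) and 0.2 (Pik3r1). Of all 11972 genes 1279 were called higher and 747 lower in that comparison, shares close to those of the list. Of 14 genes for receptor turnover and inhibition, 1 was called in the 4 comparisons, Lrig1, an inhibitor of ErbB receptors, higher in ciliated mutants than in non-ciliated ones (1.20 ± 0.16, 1.57e-06), where 10.7% of all genes were called higher. The exact permutation p of Lrig1 over the mutant clones was 0.2. Ptprj, a phosphatase that acts on Egfr, had a log2 fold change of -0.55 ± 0.12 in ciliated mutants (edgeR adjusted p = 0.00725), below the fold required, and its clone means overlapped (exact permutation p = 0.143).

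Of 21 genes that Erk signalling is known to induce, 20 were tested in each comparison. Between ciliated mutants and controls none was called, against 0.644% of all genes. All 20 nevertheless had negative log2 fold changes with a median of -0.90, against -0.01 over all genes. The summed level of the list was 5007 CPM in D8 and 4057 CPM in A4, but 1329 CPM in H12 and 506 CPM in G7, and 1794 to 2264 CPM in the 3 ciliated mutants. The mutants thus lay between the 2 high and the 2 low controls, as they did for Areg, Btc and Hbegf. Non-ciliated clones were closer together, at 2528 to 3964 CPM, and between genotypes the list had 10 positive and 10 negative values with a median of 0.03.

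Between states in the mutants 11 of 20 genes of the same list were called lower in ciliated cells and none higher, where 747 of all 11972 genes were called lower, and the list had a median of -1.25 against 0.04 over all genes. Ccnd1, the gene for cyclin D1, had -4.95 ± 0.35 (edgeR adjusted p = 1.23e-10), Fosb -3.54 ± 0.22 (1.75e-11), Etv4 -2.83 ± 0.28 (2.36e-08) and Fos -2.53 ± 0.29 (1.59e-07). Over the mutant clones the exact permutation p of each was 0.1, the smallest possible. In controls, where 473 of 11856 genes were called lower, 2 of the list were, Ccnd1 (-2.84 ± 0.66, 0.000438) and Fos (-2.66 ± 0.36, 1.13e-07), and 1 higher, the phosphatase gene Dusp4 (1.69 ± 0.47, 0.00259). The control clone means overlapped for Ccnd1 (exact permutation p = 0.286) and Dusp4 (0.486) but not for Fos (0.0286, the smallest possible). Fosb was the single gene of the list called in the interaction (-2.95 ± 0.73, 0.0236). There 1.19% of 12544 genes were called, and 0 genes with the libraries of each clone summed. Of 12 proliferation genes none was called between genotypes or between states in controls, and Bub1 was called lower in ciliated mutants than in non-ciliated ones (-1.10 ± 0.12, 5.49e-08). The exact permutation p of Bub1 over the mutant clones was 0.1, the smallest possible. Between genotypes 0.644% (ciliated) and 3.06% (non-ciliated) of all genes were called. By the adjusted p alone 7 of the 12 were lower in ciliated cells in controls and 7 in mutants, with medians of -0.34 and -0.42 against 0.02 and 0.04 over all genes, and 3 and 1 were higher. By the same rule 29.7% and 30.7% of all genes were lower.

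Other clone properties moved with these results and their part was not tested. Collecting-duct markers summed to 1910 CPM in G7, 2002 in the ciliated Wdr34 clone 3 and 1186 in control 2, against 2790 to 4890 CPM in the other clones, and markers of other tubule segments to 450 and 285 CPM in G7 and control 2 against 17.5 to 119.5 CPM elsewhere. Of 7 such markers 2 or 3 reached 1 CPM per group. Their sum was carried by Lrp2, at 128 ± 213 CPM in ciliated and 102 ± 119 CPM in non-ciliated controls. Within the collecting-duct list Pax2 and Pax8 went the other way from the sum, being highest in G7 and control 2. The leukocyte list was carried by Csf1r, at 228 ± 60.6 CPM in ciliated controls, and was higher in all ciliated clones (171 to 298 CPM) than in non-ciliated ones (18.4 to 54.6 CPM), as was Erbb2.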

How the data were processed

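Reads were aligned by the authors to GRCm38 with Rsubread (R 3.4.4), and featureCounts gave the deposited raw counts by gene symbol, with 1 table for each library. Strand use and the handling of reads shared between genes are not given in the sources used here. Members and gene lists were chosen with earlier results of these data known. Counts were tested with edgeR 4.0.16 (quasi-likelihood, TMM scaling, filterByExpr, Benjamini-Hochberg adjustment over all genes tested) in R 4.3.3, with each library as a sample of its group. A gene was called at an adjusted p below 0.05 together with a change of 2-fold or more. Clone means were compared as log2(CPM + 0.1) by 2-sided exact permutation. Floors are 3 counts over the 4 libraries of a clone and cover counting error only. Alternatives were DESeq2 1.42.0, RLE scaling, no filter on low counts, a pseudocount of 1, the fold limit dropped, the replicate number as a block, clone as a block in limma 3.58.1 (voomLmFit), libraries summed by clone, and left-out clones or libraries. Named genes were all members, at most 4 genes of each list (those called with the largest log2 fold change in size, otherwise the most abundant), and the 2 genes most like each member by Pearson correlation over the clones. Exon lengths come from GENCODE models on GRCm38.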

Additional observations from a re-analysis of the deposited data

Results flagged for a closer look

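Of 124 groups of 4 or more values examined for a value far from the others, 11 held one, and chance gives about 1 in 20. In clone AB library 1 was low for Egfr (129 CPM) and for Erbb3 (39.6 CPM). Library 1 was also low for Erbb3 in A4 (208 CPM) and in the non-ciliated Wdr60 clone (69.9 CPM), and these 3 libraries stood apart from the others of their clones over all genes. Tgfa was high in library 4 of control 1 (51.7 CPM), and Btc was low in library 4 of H12 (1.03 CPM). Epgn was low in library 2 of control 2 (0.0504 CPM). Ereg stood out wherever it had a count, in the D8 clone mean (0.0641 CPM), the control 1 clone mean (0.013 CPM), library 2 of the ciliated Wdr34 clone 1 (0.0622 CPM) and library 4 of control 1 (0.052 CPM), the last 3 of which rest on 1 count.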

How the results depend on the processing

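Of 744 recomputed member values, 652 kept their direction and side of the threshold, 31 lost a call, 23 gained one and 38 changed sign. Alternatives without libraries that stood apart, without the clones low in Cdh1 and Epcam, and all left-out libraries or clones in single-clone and interaction fits were chosen after seeing the data. Where not stated, the cause was not tested.

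Members called moved as follows. In ciliated mutants against controls the 0 became 1 (Btc) with DESeq2 and 1 without the libraries apart, and 0 to 2 with libraries or clones left out. In non-ciliated mutants it was 0 to 1. Between states in controls the 4 became 0 with the clone block, 0 with clones summed (fewer samples) and 2 to 4 with libraries or clones left out. Between states in mutants the 2 became 5 by adjusted p alone, 1 with the clone block, 0 with clones summed and 0 to 3 with libraries or clones left out. For the ciliated Wdr34 clone 3 the range was 0 to 3 and for the non-ciliated Wdr34 clone 0 to 2. In the interaction it became 1 (Areg) with DESeq2, 1 without the libraries apart, 2 without the clones low in Cdh1 and Epcam, and 0 to 2 with libraries or clones left out.

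With the clone block Areg (1.54), Hbegf (0.24) and Egfr (0.009) turned sign in ciliated mutants against controls, and Areg (-0.031) between states in controls. Left-out libraries or clones turned these log2 fold changes. In ciliated mutants they ran from -0.41 to 0.39 (Hbegf), -0.23 to 0.45 (Tgfa), -0.29 to 0.33 (Egfr) and -0.28 to 0.52 (Erbb3). In non-ciliated mutants they ran from -0.10 to 0.42 (Hbegf), -0.10 to 0.53 (Tgfa), -0.68 to 1.33 (Btc), -0.013 to 0.143 (Erbb2) and -0.02 to 0.74 (Erbb3). Between states they ran from -0.78 to 0.031 (Hbegf) and -0.51 to 0.022 (Egfr) in controls, and from -1.53 to 0.49 (Btc) and -0.037 to 0.54 (Egfr) in mutants. In the interaction they ran from -0.58 to 0.22 (Hbegf), -0.46 to 0.29 (Tgfa) and -0.68 to 0.18 (Erbb3).

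Deviations of same-numbered libraries had r from -0.32 to 0.54 over 144 pairs (median 0.01, 20 pairs over 0.1), so the numbers were not taken as pairs although 4 of the 5 libraries apart are library 1, and 16 of 52 libraries were most like their own number. With the replicate block members called stayed at 0, 0, 4 and 2 in the 4 comparisons of groups, and genes called were 52, 324, 1210 and 2007.

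Genes called over all alternatives ran from 0 to 379 (77 as reported) in ciliated mutants, 0 to 1803 (368) in non-ciliated mutants, 660 to 7221 (1219) and 966 to 7720 (2026) between states in controls and mutants, and 0 to 585 (149) in the interaction. For single clones they ran from 82 to 790 (241, ciliated Wdr60), 13 to 277 (84, Wdr34 clone 1), 486 to 2609 (728, Wdr34 clone 3), 75 to 1420 (277, non-ciliated Wdr34) and 162 to 1483 (422, non-ciliated Wdr60). Ereg and Epgn had too few counts at this depth to be tested, and every genotype comparison rests on few clones. Whether more clones would change the calls was not tested.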
